A study of Homo sapiens with 24 samples.

Results

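The transcripts followed here are those of 8 genes of the interferon regulatory factor group other than IRF9: the transcription factors IRF1, IRF2, IRF3, IRF5 and IRF7, and the IRF2-binding proteins IRF2BP1, IRF2BP2 and IRF2BPL. They were taken by gene symbol from a table of 60609 gene rows, and all 8 were found. RNA was sequenced from A549 cells, an established human lung adenocarcinoma line. Every culture had been transfected for 48 h with 1 of 2 siRNA reagents: siBOP1, which targets BOP1, a factor needed to mature the large ribosomal subunit, or siFLuc, a control aimed at firefly luciferase, which these cells do not carry. The transfected cells were then mock-treated or given 1000 U/mL of interferon beta (IFN), and RNA was harvested after 8 h or 12 h. The 8 groups of siRNA, treatment and time held 3 libraries each, 24 in all. No untransfected culture is among the samples used here.

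Interferon regulatory factors share a DNA-binding domain that recognises GAAA-containing promoter elements. IRF3 and IRF7 are activated by kinases downstream of sensors of foreign nucleic acid and switch on interferon genes, IRF1 activates antigen presentation and antiviral genes, IRF2 binds many of the sites that IRF1 binds and can repress them, and IRF5 acts in inflammatory signalling. Type I interferon acts through a complex that holds STAT2 and IRF9, and among its known targets in epithelial cells are IRF1 and IRF7. The IRF2BP proteins were named for IRF2BP1 and IRF2BP2, which bind IRF2 as corepressors.

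Values are TPM, a share of transcripts scaled to a fixed library total, which account for transcript length, so levels may be compared between genes. Differences were tested with limma on log2(TPM + 1), a scale that understates the change of low genes, over the 16062 genes that reached 1 TPM in 3 or more libraries. A gene is said to have risen, fallen or changed where its Benjamini-Hochberg adjusted p over all those genes was under 0.05. All 8 members passed the low-value filter in every library, not merely in IFN-treated ones, since their lowest value in any library was 2.29 TPM. The p-values set each difference against the spread between libraries of a group, estimated per gene over all 8 groups. Nothing in the labels says that the libraries of a group came from separate cultures, so that spread may be technical.

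The promoters that the table of RefSeq windows held are shown for the 2 members with a match to the gamma-activated site, a promoter element of interferon-responsive genes. The motif was searched as TTCNNNGAA, which reads the same on both strands, and its match is in capitals. Bases 250 to 31 before the RefSeq start of each gene are printed 5′ to 3′ along the gene, on GRCh38.p14. The IRF1 stretch is chr5:132490804-132491023 and the IRF2BP1 stretch is chr19:45886172-45886391, both on the minus strand.
IRF1: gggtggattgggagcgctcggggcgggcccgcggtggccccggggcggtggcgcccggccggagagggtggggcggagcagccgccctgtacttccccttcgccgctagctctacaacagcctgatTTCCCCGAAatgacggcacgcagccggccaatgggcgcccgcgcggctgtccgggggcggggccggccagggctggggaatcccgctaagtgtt
IRF2BP1: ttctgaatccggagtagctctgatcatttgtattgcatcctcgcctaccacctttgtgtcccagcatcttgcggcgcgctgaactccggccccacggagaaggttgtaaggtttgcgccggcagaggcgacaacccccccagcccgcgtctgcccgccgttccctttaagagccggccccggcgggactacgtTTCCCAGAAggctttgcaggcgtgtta

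The IRF1 match began 124 bases before the start and the IRF2BP1 match 57 bases before it. Among all 35116 promoter windows of the table, which run from 250 bases before to 50 bases after each start, 7.66% held TTCNNNGAA. The core of the interferon-stimulated response element (GAAA, any 2 bases, GAAA, on either strand) was in 3.57% of all windows. It was not among the letters of the windows of IRF1, IRF5, IRF2BP1, IRF2BP2 or IRF2BPL, and the windows of IRF5, IRF2BP2 and IRF2BPL held no gamma-activated site either. IRF2, IRF3 and IRF7 were not searched. A match is a run of letters and no measure of binding: of the 2 genes shown, IRF1 rose with IFN in all 4 comparisons and IRF2BP1 in none.

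Across the series, the libraries had between 13844 and 14509 genes at 1 TPM or more. TPM keeps no sequencing depth, so depth is unknown and no counting error can be given. BOP1 was lower with siBOP1, with a log2 difference of -1.84 (SE 0.09, mean of the 4 comparisons, limma adjusted p 2.04e-11), from 61.0 to 18.2 TPM at 8 h in mock-treated libraries numbered 1 and 2. The 6 epithelial markers summed to between 5729.2 and 8507.6 TPM in each library, most of it KRT7, KRT8 and KRT18. EPCAM, also among them, was at 1.92 to 5.48 TPM. Of the fibroblast markers, COL1A1 was at 5.37 to 19.3 TPM, while COL1A2, PDGFRB and DCN reached 0.334 TPM at most. The leukocyte markers CD3E and MS4A1 were listed at 0 throughout, while CD14 (1.81 to 5.26 TPM) and ITGAM (0.311 to 2.32 TPM) were present in every library, and the summed leukocyte list reached 7.18 TPM at most, in a mock-treated library. CDKN2A, which A549 cells have lost from both chromosomes, was listed at 0 in all 24 libraries. In RNA from whole cultures, a change in the share of cells that express a gene and a change in its RNA per cell cannot be told apart. In each group 1 library carries the number 4, where the labels number the replicates to 3. At 12 h these libraries stood apart: their correlation with the others of their group across genes was 0.961 to 0.977, against 0.985 to 0.988 between numbers 1 and 2. Values without them are given for some, not all, of the calls and values that they changed.

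Before IFN, in all 4 mock groups IRF2BP2 was the highest and IRF7 the lowest, and IRF3 was the most abundant of the 5 factors. In the siFLuc mock group at 8 h the means were 143.0 TPM for IRF2BP2, 49.9 for IRF3, 29.0 for IRF1, 25.4 for IRF2BP1, 12.1 for IRF2, 9.54 for IRF2BPL, 6.66 for IRF5 and 3.47 for IRF7, and no neighbours in this order had overlapping library ranges. In siBOP1 mock libraries at 8 h IRF2 and IRF2BPL overlapped. At 12 h more neighbours could not be separated: IRF3 and IRF1, IRF2 and IRF2BPL, and IRF2BPL and IRF5 overlapped in siFLuc mock libraries, and IRF2BP1, IRF2BPL, IRF2 and IRF5 overlapped as a chain in siBOP1 mock libraries.

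With IFN the order was recast. IRF7 became the highest of the 8 in all 4 IFN groups, followed by IRF1 and then IRF2BP2, and IRF5 was the lowest. IRF1 and IRF2BP2 overlapped in the siFLuc group at 8 h and were apart in the other 3 IFN groups, and IRF2 and IRF3 also overlapped in the siFLuc group at 8 h. IRF2BPL and IRF2BP1 overlapped in both IFN groups at 12 h.

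**Figure D1:**
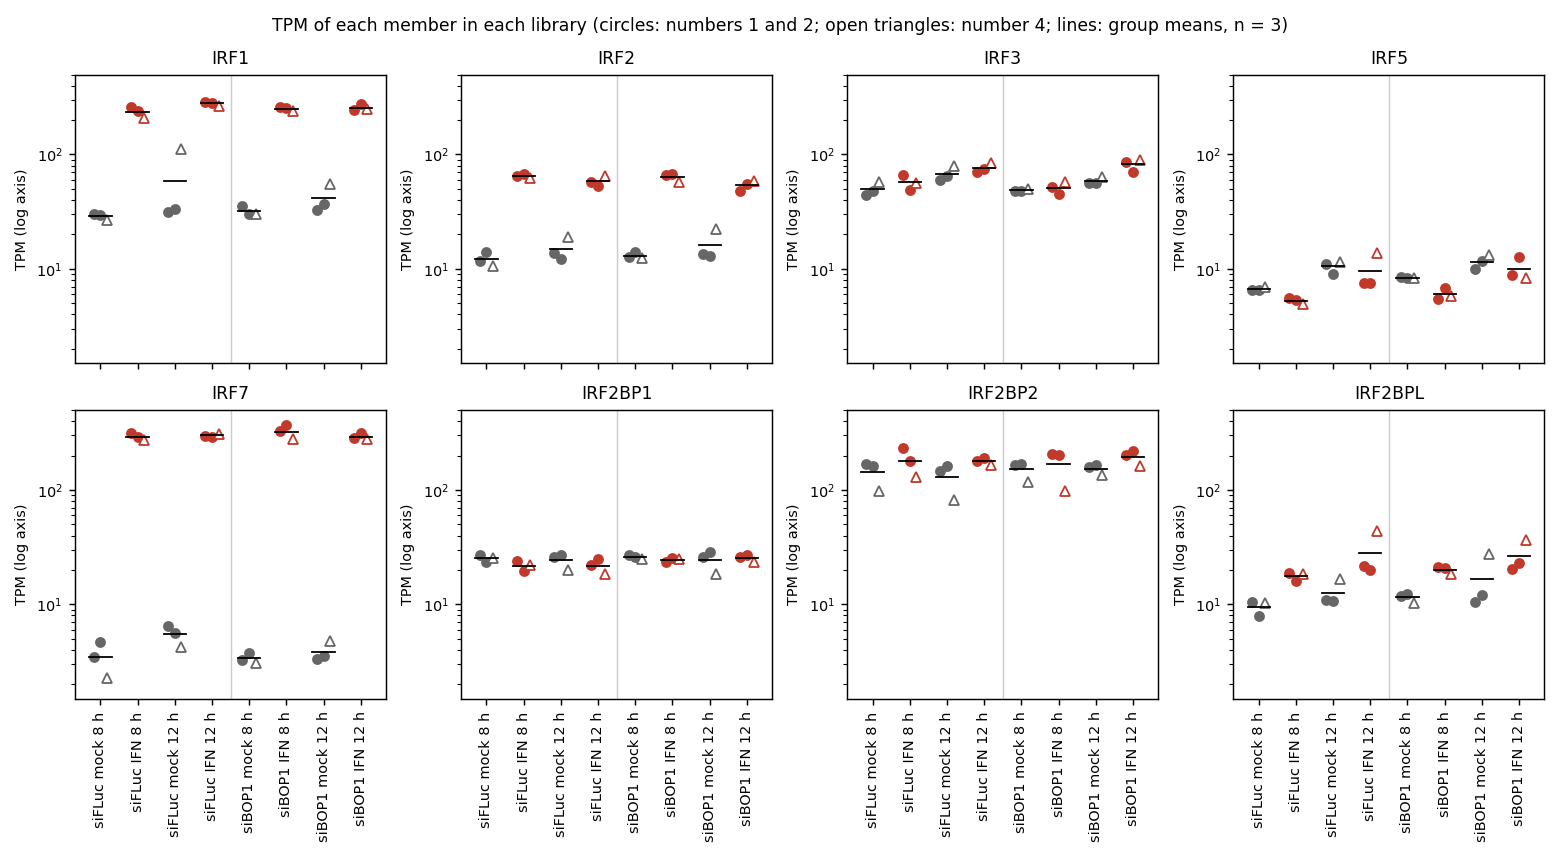
TPM (log axis) of each of the 8 genes in each of the 24 libraries, by siRNA, time and treatment. Grey is mock and red is IFN, circles are libraries numbered 1 and 2, open triangles those numbered 4, and black lines are means of 3. IRF7, IRF1 and IRF2 sit higher in all IFN libraries than in all mock libraries, with mock values of at most 6.50, 112.6 and 22.4 TPM and IFN values of at least 275.5, 207.0 and 47.5 TPM.

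Over the 5 factors, the summed level went from 101.1 TPM in the siFLuc mock group at 8 h (96.6 to 104.3) to 656.7 with IFN (606.1 to 707.7). The other sums were 158.2 and 723.2 TPM for siFLuc at 12 h, 105.5 and 695.9 for siBOP1 at 8 h, and 132.1 and 695.3 for siBOP1 at 12 h, each mock first and IFN second. The makeup of the sum shifted from IRF3 mainly to IRF7. IRF3 was between 45.0% and 49.3% of it in the mock groups and between 7.43% and 11.9% in the IFN groups. IRF7 was between 2.91% and 3.89% in the mock groups and between 41.5% and 46.5% in the IFN groups. The share of IRF1 moved less, from between 28.7% and 34.0% in the mock groups to between 35.9% and 38.6% in the IFN groups.

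**Figure D2:**
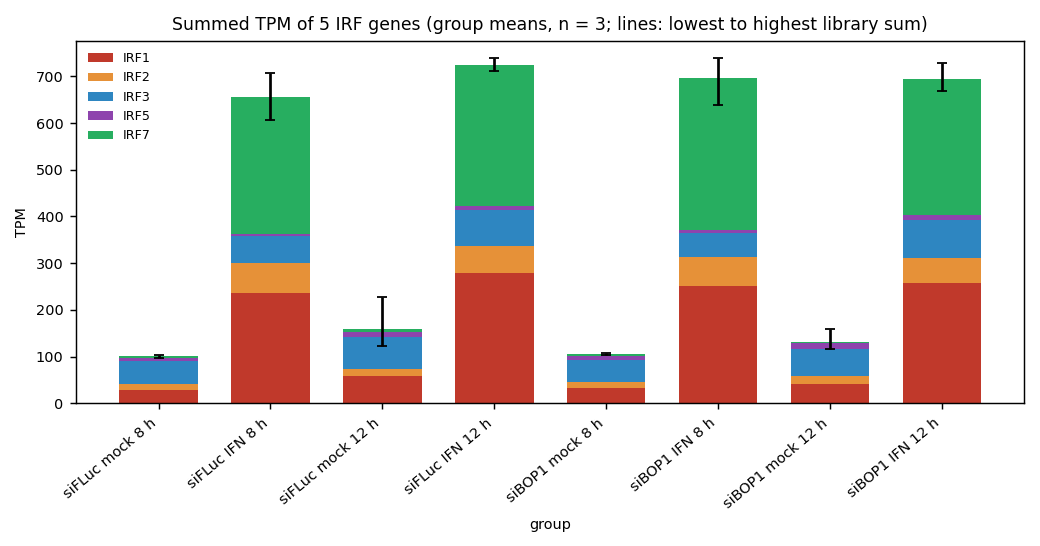
Summed TPM of IRF1, IRF2, IRF3, IRF5 and IRF7 in each group, stacked by gene as group means of 3 libraries; vertical lines run from the lowest to the highest library sum. The 4 mock sums lie between 96.6 and 227.4 TPM per library and the 4 IFN sums between 606.1 and 739.4 TPM, where most of each bar is IRF7 and IRF1.

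IFN raised 3 of the 8 members in siFLuc cells at 8 h (IRF1, IRF2, IRF7), against 5.77% of all tested genes called higher and 5.07% called lower. At 12 h in siFLuc cells it raised 4 of 8, IRF2BPL being the fourth, against 7.06% of all genes higher and 6.43% lower. In siBOP1 cells it raised the same 3 at 8 h, against 5.99% higher and 9.11% lower, and at 12 h these and IRF3, against 7.17% higher and 7.58% lower. No member fell in any of the 4 comparisons. The members' median log2 difference was 0.59, 0.77, 0.43 and 0.60 in that order of comparisons, beside -0.09, -0.06, -0.14 and -0.08 over all tested genes. Averaged over the 4 comparisons, 5 members rose (IRF1, IRF2, IRF3, IRF7 and IRF2BPL) and IRF5 fell, against 13.0% of all genes higher and 29.0% lower. Rescaling by the median of ratios moved the all-gene median by 0.14 in siBOP1 cells at 8 h, from -0.14 to -0.01, and turned the averaged split of calls from 2084 higher and 4652 lower to 2957 and 2954. The splits of the single comparisons turned from 927 and 814 to 1143 and 511 and from 1134 and 1032 to 1370 and 804 in siFLuc cells, and from 962 and 1464 to 1326 and 696 and from 1152 and 1218 to 1423 and 859 in siBOP1 cells.

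IRF7, at chr11:612553-615999 on the minus strand (GENCODE 29, GRCh38) and known as the factor that amplifies interferon production once induced, had the largest difference of the 8. In siFLuc cells at 8 h its mock libraries read 3.43, 4.69 and 2.29 TPM and its IFN libraries 312.2, 293.5 and 275.5 TPM, for the libraries numbered 1, 2 and 4. At 12 h the mock values were 6.50, 5.60 and 4.28 TPM and the IFN values 297.7, 292.8 and 309.7 TPM. Mock and IFN libraries were thus separated by more than an order of magnitude, with IFN values that varied little.
In siBOP1 cells at 8 h IRF7 read 3.26, 3.77 and 3.08 TPM in mock and 327.6, 368.1 and 278.6 TPM in IFN libraries. At 12 h it read 3.31, 3.50 and 4.77 TPM and then 283.6, 312.8 and 279.7 TPM. The ratio of mean TPM was 84.6 at 8 h and 55.0 at 12 h with siFLuc, and 96.3 and 75.6 with siBOP1. With libraries numbered 1 and 2 alone these IRF7 ratios were 74.5, 48.8, 98.9 and 87.6. The log2 differences were 6.08, 5.56, 6.21 and 5.92 in the same order (SE 0.16 each, limma adjusted p at most 2.04e-16). The neighbour PHRF1, which lies within 1 kb of IRF7 on the other strand, did not change in the averaged comparison (-0.13, limma adjusted p 0.124).

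IRF1 (chr5:132481609-132490798, minus strand) rose in all 4 comparisons, from mock values of 26.9 to 112.6 TPM to IFN values of 207.0 to 286.4 TPM. In siFLuc cells at 8 h its libraries read 30.4, 29.6 and 26.9 TPM in mock and 258.9, 241.7 and 207.0 TPM with IFN. In siBOP1 cells at 8 h they read 35.8, 30.4 and 29.9 TPM and then 259.8, 252.7 and 239.5 TPM. The IFN libraries were all far above the mock ones, and siFLuc and siBOP1 values overlapped within each treatment.
At 12 h the siFLuc mock libraries read 31.4, 33.3 and 112.6 TPM and the IFN libraries 286.4, 283.6 and 267.6 TPM. The siBOP1 libraries read 32.6, 36.8 and 55.7 TPM and then 242.8, 277.5 and 251.6 TPM. In both mock groups the library numbered 4 was the high one, at 3.48 and 1.61 times the mean of numbers 1 and 2. The log2 differences were 2.98, 2.48, 2.93 and 2.63 (SE 0.29 each, limma adjusted p at most 2.24e-06) for siFLuc at 8 h and 12 h and siBOP1 at 8 h and 12 h. The ratio of mean TPM was 8.14, 4.72, 7.83 and 6.17. For siFLuc at 12 h this ratio depended on 1 library: it was 4.72 with all 3 libraries a group and 8.81 with those numbered 1 and 2, and the log2 difference without the mock library numbered 4 was 3.07. In that library IRF7 (4.28 TPM) and IRF9 (15.9 TPM) were the lowest of their group.

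The antisense gene IRF1-AS1, which overlaps IRF1 on the plus strand, rose too, with log2 differences of 3.33, 3.56, 3.51 and 3.36 (limma adjusted p at most 4.57e-09). The library kit is stranded per the labels, but whether counting used strand is not given in the sources used here, so reads of the 2 genes may not be fully separated. In the siFLuc mock library with 112.6 TPM of IRF1, IRF1-AS1 was at 0.638 TPM, against 1.44 and 3.20 TPM in the other 2 libraries of the group.

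IRF2 (chr4:184387713-184474580, minus strand), the counterpart of IRF1 that can repress shared targets, rose less than IRF1 on the log2 scale. In siFLuc cells at 8 h it went from 11.7, 14.2 and 10.5 TPM in mock to 64.5, 66.9 and 62.6 TPM in IFN libraries, and at 12 h from 13.7, 12.3 and 19.1 TPM to 57.2, 53.3 and 64.9 TPM. With siBOP1 its values at 8 h went from 12.7, 13.9 and 12.3 TPM to 65.7, 66.9 and 57.4 TPM, and at 12 h from 13.4, 13.0 and 22.4 TPM to 47.5, 55.7 and 58.1 TPM. No mock library reached the lowest IFN library. The log2 differences were 2.34, 1.91, 2.20 and 1.70 (SE 0.17 each, limma adjusted p at most 1.66e-07). The ratio of mean TPM was 5.34, 3.89, 4.87 and 3.30. At 12 h the library numbered 4 was above the mean of numbers 1 and 2 in all 4 groups, by 1.13 to 1.69 times.

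IRF3 (chr19:49659569-49665875, minus strand), which is activated by phosphorylation rather than by synthesis in the textbook pathway, differed little. Its mock libraries in siBOP1 cells at 12 h read 56.7, 55.8 and 63.5 TPM and its IFN libraries 86.2, 70.5 and 90.2 TPM, with no overlap. In the other 3 comparisons mock and IFN libraries overlapped. The log2 difference was 0.48 there (SE 0.13, limma adjusted p 0.0183) and 0.19, 0.16 and 0.06 for siFLuc at 8 h, siFLuc at 12 h and siBOP1 at 8 h (limma adjusted p 0.443, 0.487 and 0.801). Averaged over all 4 it was 0.22 (SE 0.07, limma adjusted p 0.0106). The call in siBOP1 cells at 12 h was lost without the mock library numbered 1 or 2, or the IFN library numbered 1 or 4 (adjusted p 0.0641 to 0.0727). BCL2L12, which overlaps IRF3 on the other strand, moved the other way in the averaged comparison (-0.32, limma adjusted p 0.0109).

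IRF5 (chr7:128937612-128950035, plus strand), a factor best known from immune cells, was low throughout. Its lowest, median and highest values were 6.55, 6.56 and 6.88 TPM in siFLuc mock libraries at 8 h and 4.95, 5.31 and 5.57 TPM with IFN. In siBOP1 cells at 8 h they were 8.31, 8.34 and 8.48 TPM and then 5.46, 5.79 and 6.81 TPM. IFN libraries were below mock libraries at 8 h with either siRNA, and the ranges overlapped at 12 h. The log2 differences were -0.29, -0.16, -0.42 and -0.22 (SE 0.18, limma adjusted p 0.365, 0.622, 0.123 and 0.476), so none of the 4 passed. Their average was -0.27 (SE 0.09, limma adjusted p 0.018), and after median-of-ratios rescaling it was -0.19 (adjusted p 0.0735) and no longer passed. Over the other settings of the analysis, the IRF5 difference at 12 h ran from -0.36 to -0.11 with siFLuc. With siBOP1 it ran from -0.24 to -0.03, and no setting gave a call at 12 h.

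**Figure D3:**
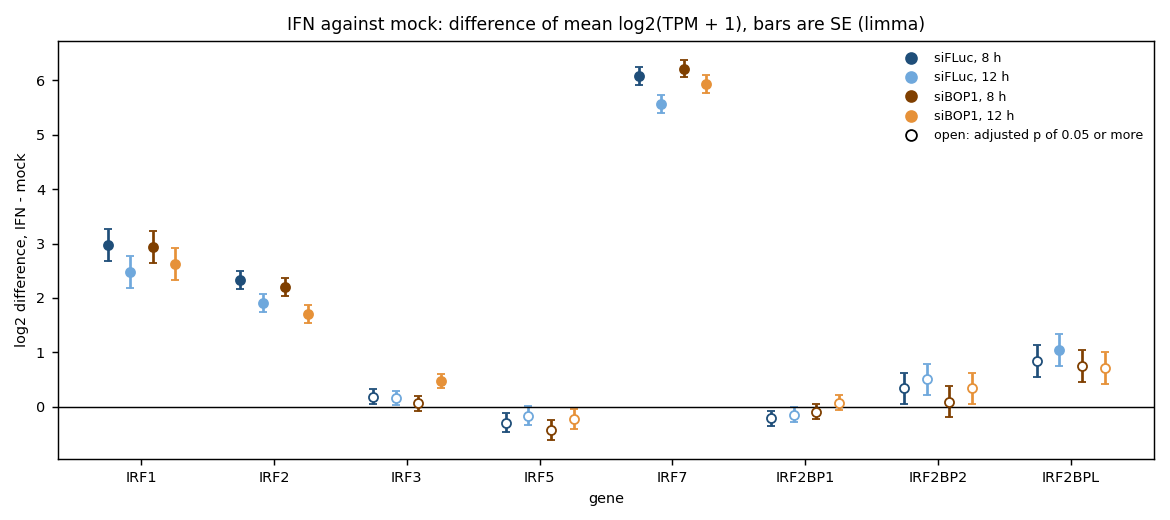
Difference between IFN and mock of mean log2(TPM + 1) for each gene in the 4 comparisons, with limma's SE; filled points have an adjusted p under 0.05. IRF7 lies between 5.56 and 6.21, IRF1 between 2.48 and 2.98 and IRF2 between 1.70 and 2.34, all filled, while IRF5 lies below 0 in all 4 without a filled point.

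The 3 IRF2BP genes divided. IRF2BPL (chr14:77024543-77028699, minus strand), a relative of the other 2 that is known from neurological disease, was higher with IFN. In siFLuc cells at 8 h it read 10.4, 7.95 and 10.3 TPM in mock and 18.7, 16.0 and 18.6 TPM in IFN libraries, and at 12 h 10.8, 10.7 and 16.6 TPM and then 21.6, 19.9 and 43.7 TPM. In siBOP1 cells at 8 h it read 11.9, 12.4 and 10.4 TPM and then 21.4, 20.6 and 18.4 TPM, and at 12 h 10.5, 12.1 and 27.6 TPM and then 20.6, 22.9 and 36.3 TPM. Mock and IFN libraries were apart in 3 comparisons and overlapped in siBOP1 cells at 12 h, where the mock library numbered 4 reached into the IFN range. The log2 differences were 0.84, 1.04, 0.76 and 0.72 (SE 0.29 each), and the limma adjusted p was 0.077, 0.021, 0.093 and 0.111. Only siFLuc at 12 h passed, and the average of 0.84 (SE 0.15) passed with an adjusted p of 0.000109. When libraries were blocked by their column number, all 4 passed in limma: the adjusted p was 0.00014 for siFLuc and 0.00031 for siBOP1 at 8 h, and 1.18e-05 and 0.000482 at 12 h. The siFLuc call at 12 h was lost without the mock library numbered 1 (adjusted p 0.0769) or 2 (0.0802) and without the IFN library numbered 4 (log2 difference 0.69, adjusted p 0.115). The siBOP1 comparison at 12 h passed without the mock library numbered 4 (log2 difference 1.13, adjusted p 0.00687).

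IRF2BP2 (chr1:234604269-234609525, minus strand), the corepressor with the highest level of the 8 before IFN, was read at 168.8, 162.9 and 97.2 TPM in siFLuc mock libraries at 8 h and at 234.4, 179.2 and 129.8 TPM with IFN. At 12 h these were 145.6, 163.0 and 81.4 TPM and then 179.6, 190.3 and 163.9 TPM. The library numbered 4 was the lowest of its group in all 8 groups, at 0.477 to 0.886 of the mean of numbers 1 and 2.
The log2 differences with IFN were 0.34, 0.51, 0.10 and 0.34 (SE 0.29 each, limma adjusted p 0.532, 0.273, 0.864 and 0.494), and the average was 0.32 (SE 0.14, limma adjusted p 0.0771), so none passed. Blocked by column number, the siFLuc comparison at 12 h passed in limma (adjusted p 0.0084) and so did the average (adjusted p 0.000536). Without blocking, the average passed when 1 of 3 libraries was left out: number 4 of the siFLuc IFN group at 8 h (adjusted p 0.0403), number 2 of the siFLuc mock group at 12 h (0.0463) or number 4 of the siBOP1 IFN group at 8 h (0.0132). It also passed with libraries numbered 1 and 2 alone (0.31, adjusted p 0.00037) and after median-of-ratios rescaling (0.42, adjusted p 0.0359).

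IRF2BP1 (chr19:45883607-45886170, minus strand), the other corepressor named for binding IRF2, stayed between 18.5 and 28.7 TPM in all 24 libraries. Its log2 differences with IFN were -0.21, -0.15, -0.09 and 0.07 (SE 0.14 each, limma adjusted p 0.409 to 0.799), and their average was -0.09 with a 95% interval of -0.24 to 0.05. The average became 0.00 after median-of-ratios rescaling, and with libraries numbered 1 and 2 alone it was -0.14 and passed (adjusted p 0.0496). Of the 2 promoters printed above, that of IRF2BP1 belongs to a transcript with no call in the 4 comparisons, and that of IRF1 to one with ratios of 4.72 to 8.14.

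**Figure D4:**
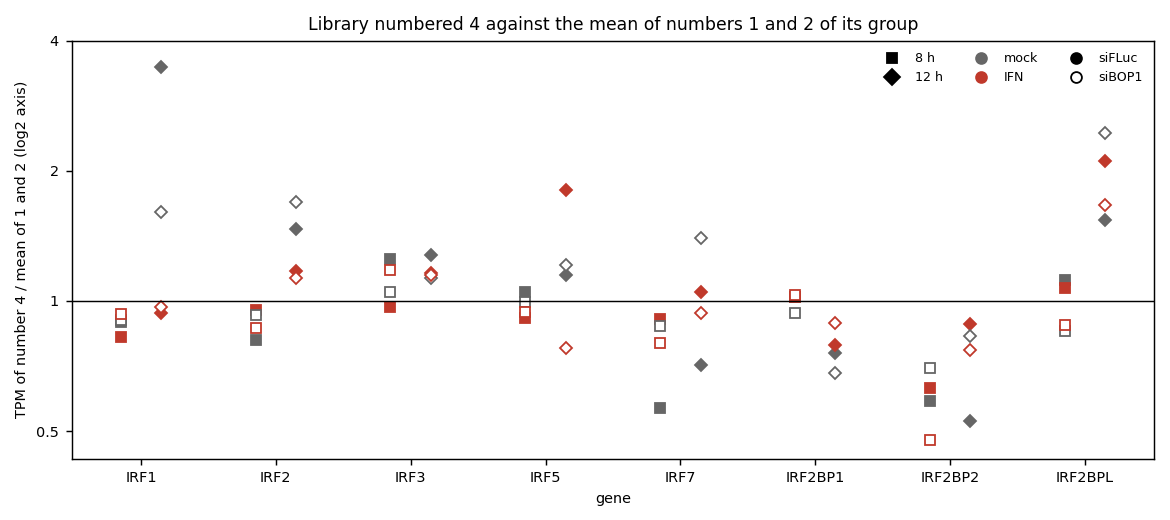
TPM of the library numbered 4 divided by the mean of numbers 1 and 2 of its group (log2 axis), for each gene and group; squares are 8 h, diamonds 12 h, grey mock, red IFN, filled siFLuc and open siBOP1. IRF2BP2 lies under 1 in all 8 groups (0.477 to 0.886), IRF2BPL lies at 1.54 to 2.45 in the 4 groups at 12 h, and IRF1 reaches 3.48 in siFLuc mock cells at 12 h.

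BOP1 depletion was the next question, since the series combined IFN with an siRNA against this ribosome biogenesis factor. Ribosome biogenesis itself is not measured in these libraries. No member changed with siBOP1. The count was 0 of 8 in mock libraries at 8 h (all genes: 2.16%) and at 12 h (1.60%), and 0 of 8 in IFN libraries at 8 h (2.0%) and at 12 h (0.660%). Averaged over the 4 comparisons it was again 0 of 8, against 16.9% of all genes. A count of 0 over 8 genes cannot be set apart from these shares. At an unadjusted p under 0.05 the limma fit gave 1 member, IRF7 in mock libraries at 12 h, and none in the other 4 counts. The largest absolute difference was that of IRF7 in mock libraries at 12 h, -0.41 (SE 0.16, limma adjusted p 0.266), with 6.50, 5.60 and 4.28 TPM in siFLuc and 3.31, 3.50 and 4.77 TPM in siBOP1 libraries, which overlapped. With the libraries numbered 1 and 2 alone this difference was -0.68 and passed (adjusted p 0.0115 with the replicate block, 0.0177 with no block).
IRF5 in mock libraries at 8 h was the 1 case without overlap, with siBOP1 at 8.31 to 8.48 TPM and siFLuc at 6.55 to 6.88 TPM. Its log2 difference of 0.29 did not pass (SE 0.18, limma adjusted p 0.569). How often 3 libraries stand apart from 3 over all genes was not counted, for this or the other ranges given. The averaged siRNA differences of the 8 lay between -0.08 for IRF7 and 0.17 for IRF2BPL, and the bounds of their 95% intervals between -0.35 and 0.47.

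**Figure D5:**
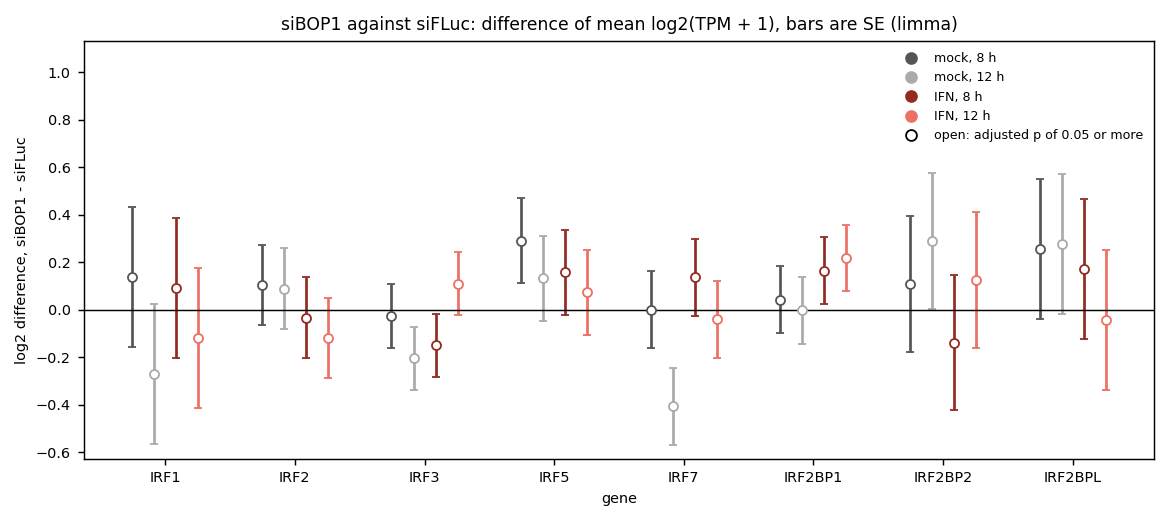
Difference between siBOP1 and siFLuc of mean log2(TPM + 1) for each gene in the 4 combinations of treatment and time, with limma's SE; open points have an adjusted p of 0.05 or more. All points are open and lie between -0.41 (IRF7, mock, 12 h) and 0.29 (IRF5, mock, 8 h).

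The IFN response itself was compared between the siRNAs. In the limma fit 0 of 8 members differed at 8 h, at 12 h or averaged over the times, and 0 of all genes (0% each); at an unadjusted p under 0.05 no member and 353, 259 and 396 genes did. For the averaged difference of responses (siBOP1 minus siFLuc) IRF7 had 0.25 (95% interval -0.09 to 0.59), IRF1 0.05 (-0.56 to 0.67) and IRF2 -0.17 (-0.53 to 0.18). The averaged rises with IFN that these stand beside were 5.94, 2.76 and 2.04. Over the other settings of the analysis the IRF7 difference of responses ran from 0.25 to 0.52 and passed in none.

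Response sizes at the 2 times were compared next. IRF1, IRF2 and IRF7 had a lower log2 difference at 12 h than at 8 h with either siRNA. The averaged difference of responses (12 h minus 8 h) was -0.40 for IRF1, -0.46 for IRF2 and -0.40 for IRF7, with limma adjusted p of 0.889, 0.598 and 0.656, and none passed. The count was 0 of 8 in siFLuc, in siBOP1 and averaged, against 0.00623%, 0% and 0.00623% of all genes. At an unadjusted p under 0.05 it was 1, 1 and 2 members, the last being IRF2 (p 0.0129) and IRF7 (p 0.0217). For IRF1 the value was 0.02 with the libraries numbered 1 and 2 alone.

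Levels at 12 h were also set against those at 8 h, averaged over siRNA and treatment, a comparison chosen after the levels had been seen. IRF3 was higher at 12 h by 0.45 (SE 0.07, limma adjusted p 9.52e-05) and IRF5 by 0.58 (SE 0.09, limma adjusted p 0.00013). IRF2BPL was higher by 0.41 (SE 0.15, limma adjusted p 0.0467), and with libraries numbered 1 and 2 alone by 0.10 (adjusted p 0.273). Its call held in 7 of 24 omissions of 1 library (adjusted p 0.0241 to 0.0874). IRF1 was higher by 0.34 (SE 0.15, limma adjusted p 0.0946) and passed when any 1 library of the siFLuc mock group at 12 h was left out (adjusted p 0.0326 to 0.0475), though without number 4 the difference was 0.19. IRF3, IRF5 and IRF2BPL were 3 of 8 members, against 25.0% of all genes. A count of 3 over 8 genes cannot be set apart from that share. IRF3 and IRF5 passed under each of the 7 other settings and each of the 24 omissions of 1 library. Time since transfection differs along with treatment time between these groups, and the 2 cannot be told apart.

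The rest of the family gives context. IRF9, the partner of STAT2, rose with IFN by 2.58 to 2.99 on the log2 scale, close to the range of IRF1. IRF4 and IRF8 were below the filter, with highest values of 0.711 and 1.23 TPM.

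Genes around the members in the pathway were read from lists, beside the 5.77% to 7.17% of all tested genes called higher in the 4 IFN comparisons. The lists were chosen with earlier results of these data known. Their genes could also pass the filter through IFN libraries alone, and their mock levels are not given here. The counts therefore describe the lists and cannot serve as support. Of 12 sensors and adaptors upstream of IRF3 and IRF7, 8 rose in each of the 4 IFN comparisons and none fell (median log2 difference 0.96 to 1.49). The cytosolic RNA sensors IFIH1 and RIGI rose by 5.51 to 5.96 and 5.20 to 5.84, and the endosomal RNA sensor TLR3 by 3.86 to 4.82. MAVS, the adaptor of the 2 cytosolic sensors, had an average of -0.11 (limma adjusted p 0.393) and did not pass.
Of 10 kinases and scaffolds that act on IRF3 and IRF7, 3 rose in each comparison and none fell. The kinase IKBKE rose by 0.98 to 1.25, the scaffold AZI2 by 1.00 to 1.16 and the kinase TBK1 by 0.37 to 0.46.
Of 7 STAT partners and co-activators 5 rose in each comparison, among them BATF2, which pairs with IRF1 (5.34 to 5.47), IFI35 (4.17 to 4.50) and STAT2 (3.74 to 4.21). Of 12 regulators of IRF protein turnover and activity 4 rose in each, among them the ISG15 ligase HERC5 (4.95 to 5.47), the ubiquitin ligase TRIM21 (2.76 to 3.37) and PML (2.84 to 3.31).

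Of 17 textbook IRF1 targets 15 were tested, and 14, 14, 15 and 13 rose in the 4 IFN comparisons, with no gene lower (median 2.72 to 2.81). The limits given above for the choice of the lists and for the filter hold for these counts too. TNFSF10, which encodes the death ligand TRAIL, rose by 5.75 to 6.11, the tryptophan-degrading enzyme IDO1 by 5.69 to 6.05 and the GTPase GBP1 by 4.66 to 5.40. Many of these targets are also targets of IRF9 complexes, and their dependence on IRF1 was not tested. In the averaged siRNA comparison 5 of the 15 were higher with siBOP1, where 16.9% of all genes changed, 1608 of them higher and 1110 lower: PSMB8 by 0.16, PSMB9 by 0.25, TAP1 by 0.20, TAPBP by 0.32 and B2M by 0.22 (limma adjusted p 0.00049 to 0.0284), while IRF1 itself had -0.04 (adjusted p 0.895). These 5, genes of antigen processing and presentation, were named after their values were seen.
Of 11 interferons and cytokines that IRF3 and IRF7 can induce, 4 were tested, and 2, 2, 3 and 3 rose. Genes that IFN does not raise can stay below the filter, so the share of tested genes that rose cannot serve as support. The chemokine CXCL11 rose by 2.84 to 3.87 and the chemokine CCL5 by 1.26 to 3.37 in all 4 comparisons, and IL6 passed in siBOP1 cells (1.79 and 1.89). IFNB1, IFNA1, IFNA2, IFNK and IFNL1 to IFNL3 did not reach the filter. Of 8 partners and reported targets of IRF2BP2 none changed in siFLuc cells, where 10.8% of all genes changed at 8 h and 13.5% at 12 h; at an unadjusted p under 0.05 in limma it was 1 and 3 of the 8. Counts this small over 8 genes cannot be set apart from those shares. In siBOP1 cells 15.1% of all genes changed at 8 h and 14.8% at 12 h. There the lymphocyte transcription factor NFATC2 fell at both times (-0.63 and -0.67) and EWSR1 rose at 12 h (0.30). These 2 genes were named after their values were seen. Over all 4 comparisons NFATC2 lay between -0.67 and -0.44 and EWSR1 between 0.15 and 0.30. No tested gene passed for a difference in IFN response between the siRNAs. The calls of NFATC2, EWSR1 and IL6 therefore do not set siBOP1 cells apart from siFLuc cells.

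The genes with the most similar profile to each member, at most 3, were listed by Pearson r of log2(TPM + 1) over the 24 libraries, among 10586 genes with a mean of at least 5 TPM. The points share their libraries and treatment, so the IFN contrast is part of each r. IRF7 was closest to SP100 (0.998), OAS2 (0.997) and HERC5 (0.997), IRF1 to SOCS1 (0.989), PRKD2 (0.986) and USP15 (0.986), and IRF2 to SP110 (0.990), EIF2AK2 (0.988) and GBP1 (0.986).
The other members had lower values. IRF2BPL was closest to COQ10B (0.957) and RASSF10 (0.953), IRF5 to TBC1D17 (0.937), ULK1 (0.895) and PLA2G15 (0.894), and IRF2BP2 to PCED1B (0.907), P4HA1 (0.889) and IGFBP3 (0.880). IRF3 was closest to TAX1BP1 (0.894), RHPN1 (0.862) and NASP (0.854), and IRF2BP1 to BLCAP (0.868), BAG5 (0.799) and TMEM115 (0.797).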

How the data were processed

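Stranded mRNA libraries of 24 A549 samples were analysed from the authors' deposited TPM table, whose columns each sum to 1000000. The aligner, quantifier, build and annotation are not given in the sources used here. Columns were matched to samples by name. The 8 columns numbered 4 match no numbered label and were used as members of their group. Genes that reached 1 TPM in 3 or more libraries entered limma 3.58.1 (R 4.3.3) as log2(TPM + 1) (1 mean per group, trended variance, Benjamini-Hochberg over all genes within a comparison, threshold 0.05), a procedure also tested on simulated data. Gene symbols named 60340 rows, positions come from GENCODE 29 and promoter windows from RefSeq. Members and lists were chosen with earlier results of these data known. From each list at most 3 genes past the threshold in all 4 IFN comparisons are named. Over the 8 comparisons of 2 groups, deviations of same-numbered columns correlated at 0.115 to 0.508 with all 3 numbers and at -0.012 to 0.156 for numbers 1 and 2 alone. The numbers come from the column names. Alternatives covered pseudocount, filter, scaling, variance trend, samples in the fit, replicate blocks and omission of each library. Some items of the lists are not reported here.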

Additional observations from a re-analysis of the deposited data

How the results depend on the processing

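IRF1, IRF2 and IRF7 kept their rise with IFN in all 4 comparisons under all 10 other settings and all 6 omissions of a library per comparison, with log2 differences of 2.17 to 3.10, 1.57 to 2.44 and 5.40 to 6.54. The weaker calls were those of IRF2BPL, IRF3 and IRF5 given with their values in the report; IRF2BPL in siFLuc cells at 12 h also missed the threshold with no filter on low values (adjusted p 0.0547) and with only the groups compared in the fit (0.146), and its time difference missed it with no filter (0.107), without the variance trend (0.0537) and after either rescaling (0.0624 and 0.0766). IRF2BPL gained calls in the other 3 IFN comparisons (siFLuc 8 h, siBOP1 8 h and 12 h) after median-of-ratios rescaling (0.0198, 0.0198 and 0.042) and quantile normalization (0.0289, 0.0308 and 0.0453), and at 8 h in a fit of the compared groups (0.0155 and 0.00533). It also gained these 3 with libraries numbered 1 and 2 alone and no block (limma adjusted p 0.000515, 0.00128 and 0.000287). In that setting IRF2BP2 passed in siBOP1 cells at 12 h (limma adjusted p 0.0191). With the replicate block on libraries numbered 1 and 2 alone, 5 members were called with IFN at 8 h in siFLuc and 5 in siBOP1 cells, IRF2BP2 and IRF2BPL being added; the same 2 were added in siBOP1 cells at 12 h (adjusted p 0.00923 and 0.000326), from 4 to 6. With these libraries 1 member was called for the siRNA in mock cells at 12 h (IRF7), and 1 in the averaged siRNA comparison (IRF2BPL with the block, IRF5 with no block). Omitting 1 library gave 0 to 1 members there, the 1 being IRF5 (0.23, adjusted p 0.0329) without the siFLuc IFN library numbered 4 at 12 h. The block by column number changed no call but those of IRF2BPL and IRF2BP2 given in the report; it was not run for the time difference.

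Signs that turned all belonged to values that did not pass. After median-of-ratios rescaling IRF2BP1 had 0.065 with IFN in siBOP1 cells at 8 h and 0.00 averaged, and the time differences of IRF2 and IRF2BP2 were -0.045 and -0.046. After quantile normalization that of IRF2 was -0.020. With libraries numbered 1 and 2 alone, with or with no replicate block, IRF2BP1 had -0.047 with IFN in siBOP1 cells at 12 h, the averaged siRNA difference was 0.033 for IRF1 and -0.004 for IRF2, the siRNA difference in the IFN response was -0.165 for IRF1, -0.022 for IRF3, 0.076 for IRF5 and 0.046 for IRF2BP2, and the time difference in it was 0.017 for IRF1. With no block the time differences were -0.151 for IRF2, 0.078 for IRF2BP1 and -0.066 for IRF2BP2. Omitting 1 library gave averaged siRNA differences of -0.118 to 0.108 for IRF1 and -0.050 to 0.054 for IRF2; siRNA differences in the response of -0.242 to 0.210 for IRF1, -0.181 to 0.034 for IRF5 and -0.325 to 0.003 for IRF2BPL; and a time difference in it of -0.091 to 0.286 for IRF2BPL. It gave time differences of -0.020 to 0.072 for IRF2, -0.072 to 0.004 for IRF2BP1 and -0.049 to 0.116 for IRF2BP2. In siBOP1 cells it gave IFN differences of -0.017 to 0.152 for IRF3 and -0.083 to 0.450 for IRF2BP2 at 8 h, and -0.102 to 0.199 for IRF2BP1 at 12 h. The cause was not tested.

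Over all genes, calls with IFN numbered 1741 at 8 h and 2166 at 12 h with siFLuc, and 2426 and 2370 with siBOP1. They were 3370, 4326, 4653 and 4487 with the block by column number and 3087, 4063, 4176 and 4474 with the replicate block on numbers 1 and 2, which without the block gave 3403 and 3831 at 12 h. A fit of the compared groups alone gave 951 for siFLuc at 12 h. The siRNA calls (347 and 257 in mock, 322 and 106 in IFN cells at 8 h and 12 h) were 1364, 1231, 1415 and 606 with the column block, 761, 493, 925 and 219 with the replicate block on numbers 1 and 2, 41, 10, 23 and 1 with only the groups compared, and 589 in IFN cells at 8 h with numbers 1 and 2 and no block. The averaged siRNA calls went from 2718 to 4769 with the column block. The averaged time by IFN calls (1) were 61, 116 and 46 under the column block and the pair of settings on numbers 1 and 2. TPM keeps no depth, so how far depth limits the low members IRF5 and IRF7 in mock cells is unknown.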

Other observations

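IRF2-DT, the divergent transcript next to IRF2, was near the lower limit of the values tested: it passed the filter of 1 TPM in 3 libraries through IFN libraries alone, its highest mock value being 0.670 TPM. Its mean was 0.453, 0.380, 0.441 and 0.574 TPM in the mock groups (siFLuc at 8 h and 12 h, then siBOP1) and 1.24, 1.45, 1.08 and 1.28 TPM in the matching IFN groups. Because IRF2-DT entered the test only through IFN libraries, a test of its IFN difference cannot serve as support and none is given. A log2(TPM + 1) difference also understates the change at such levels and could not be set against that of IRF2. In the siRNA comparison the RNA sensor RIGI was lower with siBOP1 by 0.43 (averaged, limma adjusted p 0.000702). The kinase IKBKE was higher by 0.31 (limma adjusted p 0.00844) and the adaptor TRADD by 0.28 (limma adjusted p 0.000322). RIGI, IKBKE and TRADD were named after their values were seen. The transcripts of IRF3 (-0.07, limma adjusted p 0.554) and IRF7 (-0.08, limma adjusted p 0.581) did not pass, and the activity of these 2 proteins was not measured. RIGI and TRADD were 2 of 12 sensors and adaptors that changed in this comparison, where 16.9% of all genes did. That count cannot be set apart from the share over all genes.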
